A study of Rattus norvegicus with 6 samples.

Results

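The 9 genes that encode the core proteins of chondroitin sulfate and small leucine-rich proteoglycans were followed in rat spinal cord after a contusion, a blunt injury that bruises the cord without cutting it. They were taken as every probe set that the array's annotation assigns to exactly 1 of the symbols Bcan, Ncan, Vcan, Acan, Cspg4, Cspg5, Ptprz1, Dcn and Bgn. This gave 16 of the 8799 probe sets and 9 of the 4736 genes named on the array, with all members present: 4 for Dcn, 2 each for Ncan, Cspg5, Ptprz1 and Bgn, and 1 for each of the other four. The RNA was total RNA from thoracic cord near segment T8, hybridised to 6 arrays with 1 colour: 3 of the injury epicenter 35 days after contusion and 3 of uninjured cord at that level. Strain, sex, age and impact force are not in the labels, which name no sham operation and give no day for the uninjured samples, so surgery and elapsed time are confounded with contusion and cannot be told apart from it. Nor do they tie each array to a separate rat, so p-values here reflect only how far these 6 arrays scatter, some of which may be technical.

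A proteoglycan is a core protein carrying long sulfated sugar chains. The lecticans aggrecan, versican, neurocan and brevican carry chondroitin sulfate, bind hyaluronan at one end and tenascins at the other, and build the perineuronal nets and the loose matrix of the central nervous system. After spinal cord injury chondroitin sulfate proteoglycans collect around the lesion, where their sugar chains hinder the regrowth of axons. Decorin and biglycan are small leucine-rich proteoglycans of connective tissue, which bind collagen fibrils and transforming growth factor beta. In the spinal cord they are best known from meninges and fibroblasts.

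Values are the deposited signals on a linear scale. Signals below 61.55, the pooled 25th percentile, were set to that floor before log2 was taken, and testing required a signal above it on 3 or more of the 6 arrays. Tests are limma's on log2 signal, with Benjamini-Hochberg adjustment over all 6705 probe sets tested and a threshold of 0.05. Median signals ran from 122.1 to 126.9 over the arrays, and log2 signals correlated at 0.957 to 0.977 across probe sets within groups and at 0.910 to 0.932 between them. Of the markers on the array, 14 of 16 for neurons, all 9 for myelin and all 13 for astrocytes were bright enough to test. So were 3955 of all 4736 genes, so these counts are not a check of the tissue. In bulk RNA, fewer cells of a type and less RNA per cell cannot be told apart.

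Biglycan had the largest rise among the members, and both of its probe sets passed, at 1.72-fold and 1.85-fold higher after contusion. Neurocan rose 1.49-fold on 1 of its 2 probe sets, the dimmer one, and Cspg5 (neuroglycan C) fell 1.37-fold on 1 of its 2. Brevican, versican, aggrecan, Cspg4, Ptprz1 and decorin did not pass the test on any probe set. Of the 16 probe sets 15 could be tested, and 4 of these passed, 3 higher and 1 lower, and 5 had an unadjusted p under 0.05. Over all probe sets tested 17.4% passed, 7.79% higher and 9.59% lower, and 30.3% had an unadjusted p under 0.05. The median log2 change of the 15 was 0.44, against -0.0055 over all probe sets tested, and 12 of the 15 changes were positive. These 15 are not independent, because probe sets of 1 gene share their transcript. With only the brightest tested probe set of each gene, the median over the 9 members was 0.245, against -0.016 over all 3955 genes. Of these 9 changes 6 were positive, and 2 passed, 1 higher (Bgn) and 1 lower (Cspg5). Over all genes 7% passed higher and 9.91% lower. All 3 contused arrays lay above all 3 uninjured arrays for 4 of the 15 and below them for 2, and over all probe sets tested the groups did not overlap for 34.8% (16.6% above, 18.2% below). No member call held in every leave-one-out fit: the count was 0 without contused array 2 and 0 without uninjured array 3, 2 without contused array 1 or 3, 4 without uninjured array 1 and 5 without uninjured array 2.

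**Figure D1:**
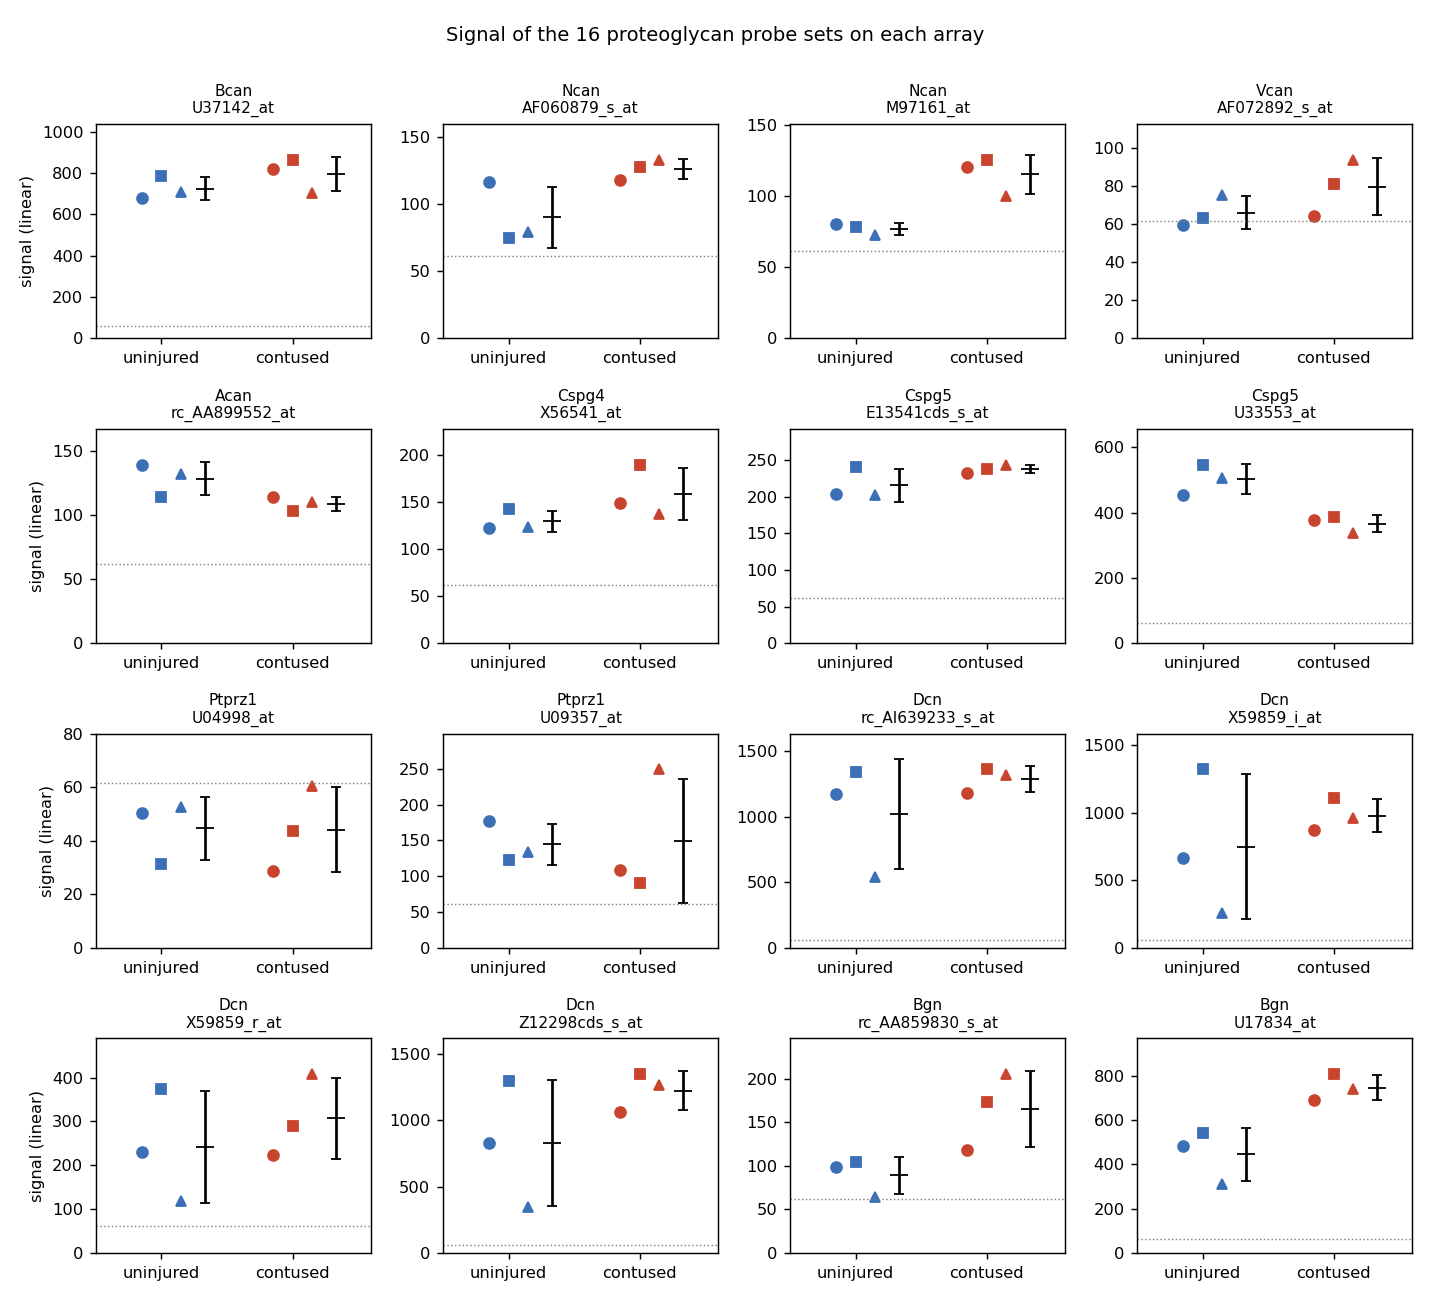
Linear signal of the 16 proteoglycan probe sets (vertical axes, from 0) on the uninjured (blue) and contused (red) arrays; circles, squares and triangles are arrays 1, 2 and 3, black bars the mean ± SD of 3 arrays and the dotted line the floor of 61.55. The contused arrays lie above all uninjured arrays for both Bgn and both Ncan probe sets and below them for Acan and for Cspg5 U33553_at, and uninjured array 3 is the lowest array of its group for all 4 Dcn and both Bgn probe sets.

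Neurocan, a secreted lectican made by astrocytes and neurons, is the first of the hyaluronan-binding members. Its promoter is shown beside that of brevican, a lectican of the same family that did not pass the test. Each stretch holds the 250 bases upstream of the start site in RefSeq's GRCr8 rat assembly, Ncan at chr16:19335657-19335906 on the plus strand and Bcan at chr2:175765315-175765564 on the minus strand. Both are written 5′ to 3′ along the gene, with matches to TATAA and GGGCGG in capitals on either strand.
Ncan: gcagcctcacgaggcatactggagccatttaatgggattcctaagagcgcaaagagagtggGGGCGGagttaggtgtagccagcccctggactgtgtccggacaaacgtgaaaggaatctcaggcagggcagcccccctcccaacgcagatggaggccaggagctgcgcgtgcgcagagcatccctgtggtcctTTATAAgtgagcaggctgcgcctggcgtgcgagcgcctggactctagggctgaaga
Bcan: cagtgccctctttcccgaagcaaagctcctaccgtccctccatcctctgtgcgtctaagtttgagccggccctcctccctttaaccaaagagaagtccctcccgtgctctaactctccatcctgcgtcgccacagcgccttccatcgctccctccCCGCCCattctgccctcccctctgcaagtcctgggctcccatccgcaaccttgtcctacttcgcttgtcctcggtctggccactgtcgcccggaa
The Ncan stretch held TATAA once on each strand, as overlapping matches that begin 56 and 55 bases before the start site, and 1 GGGCGG 189 bases before it. The Bcan stretch held no TATAA and 1 GGGCGG, on the opposite strand. Among 33469 rat promoter windows of this length, 24% held TATAA and 30.5% GGGCGG on either strand. CCAAT and TGAGTCA were searched too and matched in neither stretch (34% and 4.05% of all windows). GC content was 60.8% for Ncan and 61.2% for Bcan, against a median of 51.2%. Promoter windows were matched for 5 of the 9 genes: Ncan, Bcan, Acan, Cspg4 and Vcan, the last with 2 overlapping windows. GGGCGG was found in all 6 windows, and TATAA in that of Ncan and in 1 of the 2 of Vcan.

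On probe set M97161_at, neurocan read 80.6, 78.7 and 72.6 on uninjured arrays 1 to 3 and 120 (array 1), 126 and 100.2 on the contused arrays. The lowest contused value lies above the highest uninjured value. The means were 77.3 ± 4.19 and 116 ± 13.5 (SD, n = 3 each), a log2 change of 0.57 (SE 0.13, limma adjusted p = 0.0144). The signal is dim, at the 39.7th percentile of all probe sets by mean, and close to the floor in uninjured cord. Leaving out contused array 2 gave a log2 change of 0.51 and an adjusted p of 0.0599, and leaving out uninjured array 3 gave 0.53 and 0.0786, both above 0.05.

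The second neurocan probe set, AF060879_s_at, gave 116, 74.5 and 79.4 in uninjured cord and 118, 127 and 133 after contusion. Here uninjured array 1 reached almost the lowest contused value, although the groups do not overlap. The log2 change was 0.51 (SE 0.18, limma adjusted p = 0.0713), close to that of the first probe set. The per-array difference between the probe sets shifted by -0.06 on the log2 scale between groups (exact two-sided permutation p = 0.7; the smallest possible with 3 against 3 is 0.1). Without uninjured array 1 the second probe set passed as well (log2 change 0.71, adjusted p = 0.0123). AF060879_s_at is the brighter probe set, at the 44.1st percentile by mean signal. By the rule that the brightest probe set stands for a gene, neurocan therefore did not pass. With the mean of both probe sets in place of the brighter one, neurocan had a log2 change of 0.54 and an adjusted p of 0.0154 over all genes.

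Brevican, the lectican that glial cells place around synapses and nodes, gave 678, 788 and 709 in uninjured cord and 819, 865 and 705 after contusion. The groups overlap, since contused array 3 lies below the uninjured arrays 2 and 3. The log2 change was 0.13, with a 95% interval of -0.16 to 0.43 (limma adjusted p = 0.553). Brevican was among the brighter members, at the 93rd percentile by mean signal, so its interval is not set by the floor.

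Versican, a lectican of loose connective tissue and of glial progenitors, was near the floor throughout. It read 59.6, 63.5 and 75.8 on the uninjured arrays, the first of these below the floor, and 64.3, 81.4 and 94.1 on the contused arrays. The log2 change of 0.24 (interval -0.10 to 0.59, adjusted p = 0.322) therefore understates any difference. Splice forms of versican are not told apart here.

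Aggrecan, a lectican and a main component of perineuronal nets, gave 140, 114.2 and 132 in uninjured cord and 114.2, 103 and 109.98 after contusion. Every contused value lies below every uninjured value, but the gap between contused array 1 (114.15) and uninjured array 2 (114.246) is very small. The log2 change was -0.23 (interval -0.54 to 0.07, limma adjusted p = 0.298).

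Cspg4, Cspg5 and Ptprz1 encode membrane-spanning members. Cspg4, the NG2 proteoglycan of oligodendrocyte progenitors and pericytes, gave 123 (array 1), 142 and 124 in uninjured cord and 148, 189 and 137 after contusion. Contused array 2 is the highest, and contused array 3 lies below uninjured array 2. The log2 change was 0.28 (interval -0.08 to 0.64, limma adjusted p = 0.282). The interval reaches up to a rise as large as that of neurocan.

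Cspg5, neuroglycan C, is a membrane proteoglycan of nervous tissue with an extracellular domain like that of epidermal growth factor. On U33553_at it read 455, 547 and 505 in uninjured cord and 376, 386 and 337 after contusion, so all contused arrays lie below all uninjured arrays. The means were 502 ± 46.2 and 366 ± 26 (SD, n = 3 each), a log2 change of -0.45 (SE 0.14, limma adjusted p = 0.0433). The call was lost in each of the 6 leave-one-out fits (adjusted p = 0.0550 to 0.137), without the filter on dim probe sets (0.0550), with the replicate number as a block (0.0573), with quantile normalization (log2 change -0.38, 0.0729) and with arrays scaled to a common trimmed mean (-0.41, 0.0547). Its direction was negative in all of these.

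The other Cspg5 probe set, E13541cds_s_at, gave 203, 241 and 202 in uninjured cord and 233, 238 and 244 after contusion, with overlapping groups. Its log2 change was 0.15 (interval -0.16 to 0.46, limma adjusted p = 0.526), opposite in sign to the first. The difference between the 2 probe sets, E13541cds_s_at minus U33553_at on the log2 scale, was -1.16, -1.18 and -1.33 on the uninjured arrays and -0.69, -0.70 and -0.47 on the contused arrays. It rose by 0.60 without overlap between the groups (exact two-sided permutation p = 0.1, the smallest possible). With both averaged, Cspg5 had a log2 change of -0.15 and an adjusted p of 0.45. The fall passed on 1 probe set and not on the mean of both. In the same samples 13 of 14 neuron markers fell (0 rose), with a median log2 change of -1.11, and their part in the Cspg5 value was not tested.

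Ptprz1 encodes a receptor tyrosine phosphatase whose secreted form is the proteoglycan phosphacan. Its probe set U04998_at was below the floor on all 6 arrays (28.8 to 60.4) and could not be tested. The other, U09357_at, gave 176, 123 (array 2) and 135 in uninjured cord and 109, 91 and 249 after contusion. Contused array 3 is the highest of all 6 and the other two contused arrays are the lowest. The 2.74-fold range among the contused arrays is matched or exceeded by 0.268% of the probe sets tested. The log2 change was -0.08 (interval -0.79 to 0.63, limma adjusted p = 0.899), and it lay between -0.52 without contused array 3 and 0.20 without contused array 2.

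**Figure D2:**
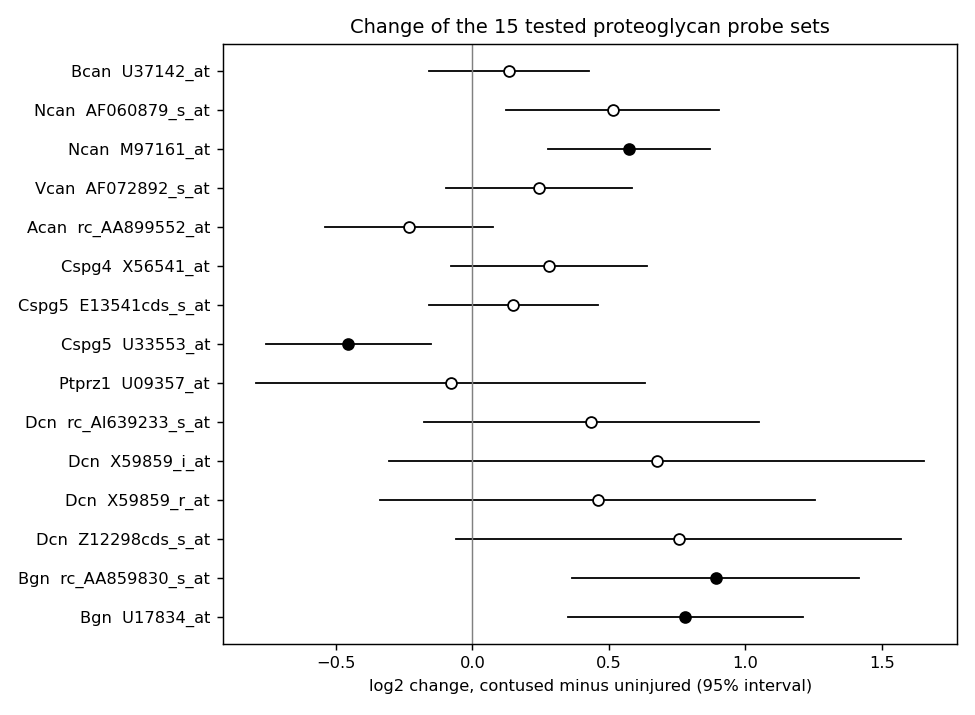
Log2 change, contused minus uninjured (horizontal axis), of the 15 tested proteoglycan probe sets with limma's 95% intervals; filled points passed an adjusted p of 0.05. Both Bgn probe sets and Ncan M97161_at lie to the right of 0 and Cspg5 U33553_at to the left, while the 4 Dcn probe sets have the widest intervals besides that of Ptprz1.

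Biglycan had the largest changes of all members. On U17834_at it gave 483, 542 and 312 in uninjured cord and 693, 807 and 741 after contusion. The groups are well apart, and uninjured array 3 is the lowest. The means were 446 ± 119 and 747 ± 57.4 (SD, n = 3 each), a log2 change of 0.78 (SE 0.19, limma adjusted p = 0.0191). The dimmer probe set, rc_AA859830_s_at, gave 98.6, 104 and 64.1 in uninjured cord and 118, 173 and 205 after contusion, again without overlap. Its log2 change was 0.89 (SE 0.24, adjusted p = 0.0257). The difference between the probe sets shifted by 0.11 between groups (exact two-sided permutation p = 0.7; with 3 against 3 this test cannot go below 0.1).

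The biglycan calls depended on single arrays. Without uninjured array 3, U17834_at had a log2 change of 0.54 and an adjusted p of 0.0608, and rc_AA859830_s_at 0.67 and 0.115. Without contused array 2, the values were 0.72 (adjusted p = 0.0825) and 0.84 (0.0940). U17834_at also missed the threshold without contused array 1 (0.0502) and rc_AA859830_s_at without contused array 3 (0.0808). Without the filter on dim probe sets neither passed (0.129 and 0.173). The direction was positive for both in every setting run.

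Decorin, the closest relative of biglycan among the members, gave bright signals and did not pass on any of its 4 probe sets. On Z12298cds_s_at it read 829, 1301 and 349 in uninjured cord and 1061, 1349 and 1268 after contusion. Uninjured array 2 is as high as the contused arrays, and uninjured array 3 is far below all others. The log2 change was 0.76 (interval -0.06 to 1.57, limma adjusted p = 0.199). On rc_AI639233_s_at the values were 1175, 1340 and 543 against 1178, 1360 and 1321, with a log2 change of 0.44 (adjusted p = 0.329). X59859_i_at and X59859_r_at, both designed from 1 sequence, had log2 changes of 0.67 and 0.46 (adjusted p = 0.345 and 0.441). The first read 667, 1322 and 259 in uninjured cord and 872, 1109 and 960 after contusion, and the second 230.1, 374 and 119 against 224, 290 (array 2) and 408.

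The spread of decorin among uninjured samples was larger than its difference between groups. The highest uninjured value was 2.47 to 5.11 times the lowest on the 4 probe sets, against 1.15 to 1.82 times within the contused group. On X59859_i_at no other probe set tested had as large a log2 range over the uninjured arrays, and for the other three it was matched or exceeded by 0.0746% to 0.597%. Without uninjured array 3 the 4 decorin changes came to 0.02 to 0.23 on the log2 scale (adjusted p = 0.544 or more). Without uninjured array 2 they were 0.68 to 1.23, and 2 passed (Z12298cds_s_at, adjusted p = 0.0436, and X59859_i_at, 0.0481).

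**Figure D3:**
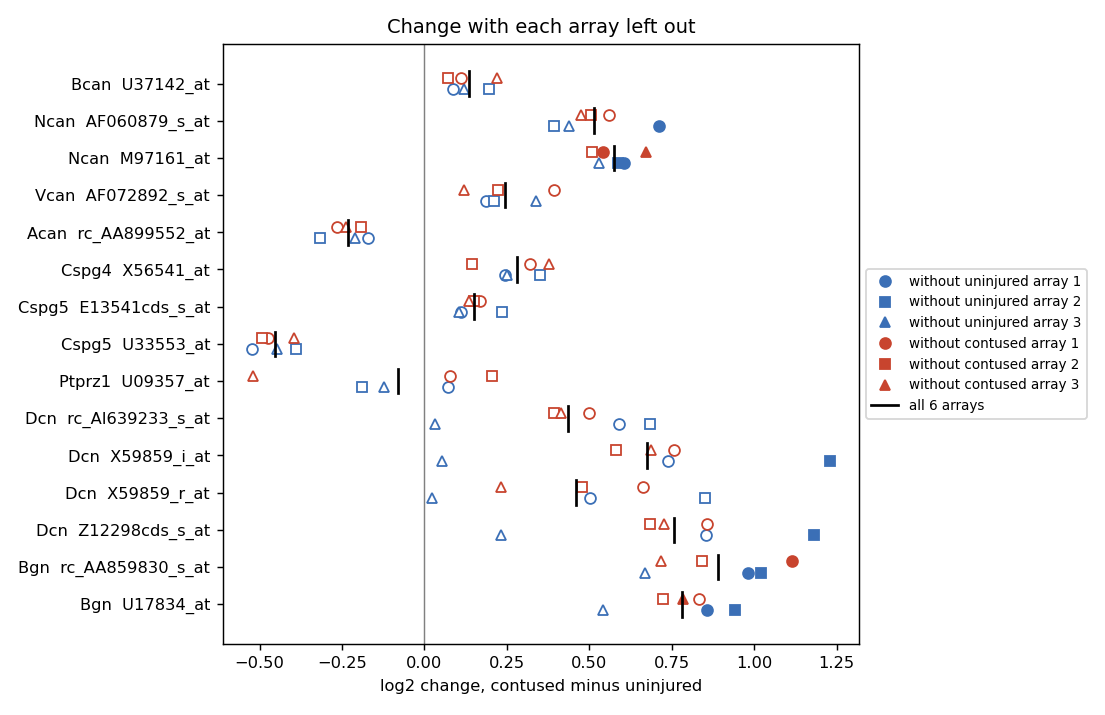
Log2 change, contused minus uninjured (horizontal axis), of the 15 tested proteoglycan probe sets with each of the 6 arrays left out (symbols, filled where the adjusted p was under 0.05) and with all arrays (black lines). Without uninjured array 3 the Dcn changes move to between 0.02 and 0.23 and the Bgn changes to 0.54 and 0.67, while the change of Ncan M97161_at, 0.57 with all arrays, becomes 0.53.

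Decorin and biglycan shared the low uninjured array. Relative to the mean of the other uninjured arrays, array 3 differed on the log2 scale by -1.21 to -1.86 for decorin and by -0.66 and -0.71 for biglycan. Between 4 and 19 of the 6705 probe sets tested were as low on that array for the decorin values, decorin's own included, and 69 and 78 for the biglycan values. For the other members the same difference ran from -0.23 (Ncan AF060879_s_at) to 0.28 (Vcan). The tested fibroblast and meningeal markers other than Sparc and Lox also had their lowest uninjured value on array 3. Sparc read 4198, 4284 and 5043 on uninjured arrays 1 to 3 and Lox 101, 103 and 111, highest on array 3. The summed signal over 16 genes of the list was 10067 on uninjured array 3 and 12338 and 13601 on the other uninjured arrays. It was 15673 to 18644 on the contused arrays. The median log2 difference of these markers from their uninjured mean was -0.42 on uninjured array 3, 0.18 and 0.28 on uninjured arrays 1 and 2, and 0.40, 0.65 and 0.75 on contused arrays 1 to 3. Of the list 6 genes rose and 0 fell (7% and 9.91% of all 3955 genes), with a median of 0.58 against -0.02 over all genes, and without contused array 2 the count was 3. S100a4, a calcium-binding protein of fibroblasts and macrophages, rose from 511 ± 48.1 to 1449 ± 212 (2.83-fold). Fn1 (fibronectin) and Serping1, the inhibitor of complement C1, had log2 changes of 1.37 and 1.79, calls that did not hold when dim probe sets were kept in (adjusted p = 0.137 and 0.117). The part of these markers in the decorin and biglycan values was not tested.

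**Figure D4:**
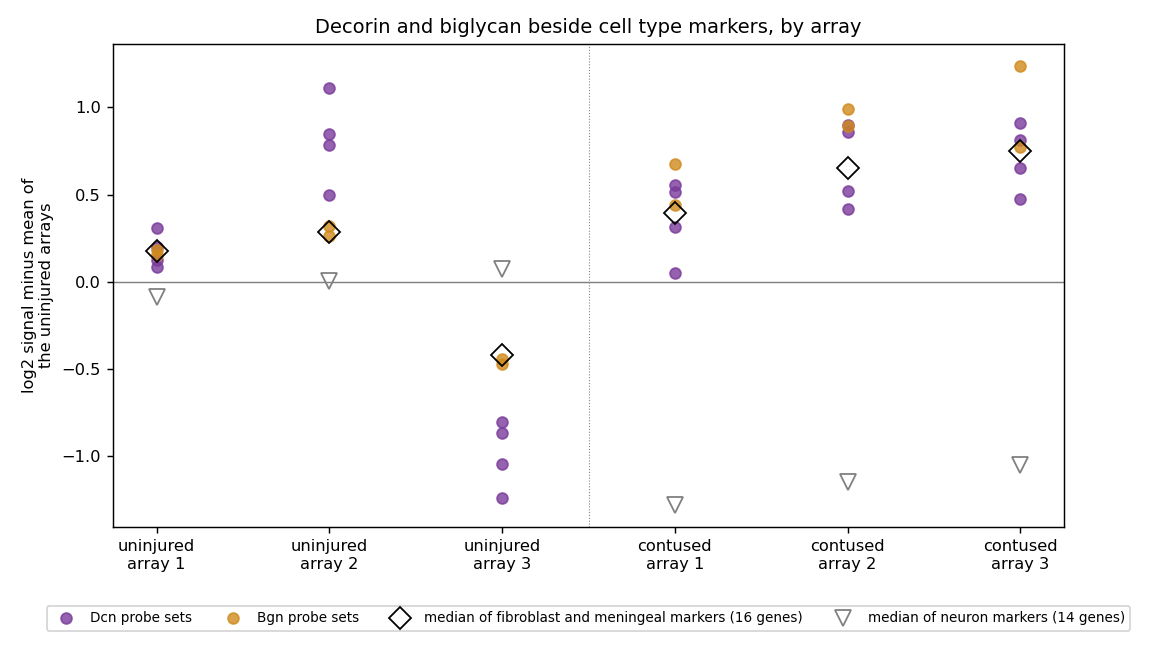
Log2 signal minus the mean of the uninjured arrays (vertical axis) for the 4 Dcn (purple) and 2 Bgn (orange) probe sets on each array, with the median over 16 fibroblast and meningeal markers (diamonds) and 14 neuron markers (triangles). On uninjured array 3 all Dcn and Bgn points and the fibroblast and meningeal median (-0.42) are below 0, and on the contused arrays that median lies at 0.40 to 0.75 while the neuron median lies at -1.05 to -1.28.

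Genes with the profile closest to each called member were sought by the root mean square difference of log2 values, each relative to the gene's own uninjured mean, over the 6 arrays and 3559 genes above the floor on all of them. For Ncan M97161_at these were Fuca1 (lysosomal fucosidase; 0.0411), Crip2, a LIM domain protein (0.0576), and Man2b1 (lysosomal mannosidase; 0.0587), against a median of 0.471 over all candidates. For Bgn U17834_at they were Nudt4 (0.099), Pttg1ip (0.121) and Id3, an inhibitor of transcription factors (0.126), against 0.649. For Cspg5 U33553_at they were Dctn1 of the dynactin complex (0.0284), the anion exchanger Slc4a3 (0.0361) and Anapc15 (0.040), against 0.375. Such closeness follows from similar changes in 6 arrays and is a description.

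The other genes of proteoglycan metabolism are given from lists, read against the share of 7% higher and 9.91% lower over all genes. Of 30 listed genes of chondroitin sulfate synthesis and sulfation 7 were on the array and tested, and 0 rose and 0 fell in limma, with 1 at an unadjusted p under 0.05 and a median log2 change of -0.08. The 7 were Xylt2, B3gat1, Papss1, Papss2, Ugdh, Slc26a2 and Sult1a1, so none of the listed Chsy, Chpf or Chst genes was measured. The brightest of the 7 were Papss1, which makes the sulfate donor (588 ± 47.3 in uninjured cord and 478 ± 27.5 after contusion, adjusted p = 0.149), and Xylt2, which adds the first xylose to core proteins (260 ± 20.9 and 243 ± 7.76, adjusted p = 0.686). Of 2 tested genes of glycosaminoglycan breakdown, Arsb, the lysosomal sulfatase acting on chondroitin and dermatan sulfate, rose from 191 ± 34.4 to 382 ± 26.2 (log2 change 1.02, SE 0.16, adjusted p = 0.0017), and it passed in every leave-one-out fit.

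Proteases that cut core proteins and their inhibitors rose in 6 of 13 cases and fell in 0, with a median log2 change of 0.44. The 6 mix the proteases Mmp12, Mmp14, Plat and Plau with the inhibitors Timp1 and Timp2. Of the 23 listed genes 16 were on the array, and none of the listed Adamts genes was among them. Plau (urokinase) rose from 66.9 ± 1.78 to 150 ± 20.2 and Timp1, an inhibitor of matrix metalloproteases, from 312 ± 21.1 to 650 ± 48.7. A second Timp1 probe set had a larger log2 change, 2.34. Mmp12, macrophage elastase, lay at the floor on all uninjured arrays and was at least 1.89-fold higher after contusion. It entered the test only through the contused arrays, so its direction was set by the filter. The Plau call was lost when the floor was raised to the 50th percentile (adjusted p = 0.132). Of the hyaluronan, link protein and tenascin list only 3 of 7 genes on the array could be tested, and 2 rose. Cd44, a receptor for hyaluronan, read 107 ± 20.8 and 292 ± 91.8 (log2 change 1.42, adjusted p = 0.0029), although its other probe set had a log2 change of -0.16 (adjusted p = 0.623) and the call was lost without the filter on dim probe sets (0.0633). Fbln5, a matrix protein of elastic fibres, had a log2 change of 0.59 (adjusted p = 0.0362). Its adjusted p was 0.0858 to 0.159 on leaving out contused array 2 or 3, or uninjured array 1 or 3, 0.152 without the filter, 0.0538 with the floor at the 10th percentile and 0.0599 with quantile normalization. Tnr, the tenascin of perineuronal nets, was on the array and too dim to test.

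Of 14 tested receptors and ligands of chondroitin sulfate proteoglycans 2 rose and 0 fell, with a median of 0.13. Nrp1 (neuropilin 1, a receptor for semaphorins) rose from 127 ± 30.6 to 254 ± 36.3 (log2 change 1.01, adjusted p = 0.00534), a call lost without the filter (0.0622). Selp (P-selectin) had a log2 change of 0.48, a call lost in 5 of 6 leave-one-out fits, all but that without contused array 3 (adjusted p = 0.0557 to 0.0712), and with the floor at the 10th percentile (0.0538). Ptprs and Ptprf, receptor phosphatases that bind the chains, did not pass. Of 5 tested other small leucine-rich proteoglycans 0 rose and 0 fell in limma, with 2 at an unadjusted p under 0.05, a median of 0.25 and 5 positive changes. Lum (lumican), which binds collagen fibrils as decorin does, read 198 ± 82.5 and 353 ± 147 (adjusted p = 0.121), and Fmod (fibromodulin) 201 ± 36.3 and 231 ± 14.6 (log2 change 0.21, adjusted p = 0.425). The second Fmod probe set, X82152_at, had a log2 change of 0.98 (adjusted p = 0.0772).

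Among 17 tested heparan sulfate and other proteoglycans 2 rose and 1 fell, with a median of -0.08. Spock2 (testican 2, a neuronal matrix proteoglycan) fell from 2060 ± 276 to 1152 ± 200 (log2 change -0.84, adjusted p = 0.00438), a call lost without the filter (0.058). Sdc4 (syndecan 4) and Cd74, the class II invariant chain that can carry chondroitin sulfate, had log2 changes of 0.54 and 0.55. Neither passed on leaving out contused array 2 (adjusted p = 0.135 and 0.101), uninjured array 1 (0.12 and 0.0753) or uninjured array 3 (0.132 and 0.122), or with dim probe sets kept in (0.143 and 0.0611). Sdc4 also missed the threshold on leaving out contused array 1 (0.0661) or uninjured array 2 (0.0570), while of its other probe sets S61868_at had a log2 change of 0.73 (adjusted p = 0.0401) and rc_AA800059_at one of -0.05 (0.878). The other 3 probe sets of Cd74 passed as well, with log2 changes of 0.53 to 1.02. Among TGF-beta and matrix partners of decorin and biglycan 7 of 16 rose and 0 fell, with a median of 0.58. Tgfb1 rose from 87.6 ± 16.3 to 273 ± 51.2 (log2 change 1.64, SE 0.20, adjusted p = 0.000338), its receptor gene Tgfbr1 had log2 changes of 0.89 and 1.40 on 2 probe sets, both past the threshold, and Fn1 is given above. The other 3 Fn1 probe sets had log2 changes of 0.59 (adjusted p = 0.0746), 0.93 (0.00338) and 1.80 (0.00169). Leaving out contused array 2 reduced the count to 3. This list and the fibroblast and meningeal list share 5 tested genes, 3 of them called (Col1a1, Col1a2, Col3a1, Fn1 and Lox are the 5), so the counts are not separate evidence.

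Markers of the cells that make these proteoglycans gave the following. Neither oligodendrocyte progenitor marker tested passed in limma (0 of 2, none at an unadjusted p under 0.05): Pdgfra, also on the fibroblast list, had a log2 change of 0.28 and Sox10 of -0.04. Astrocyte markers rose in 4 of 13 cases and fell in 0, with a median of 0.21; 2 passed on leaving out contused array 2, contused array 3 or uninjured array 3. Vim (vimentin), Clu (clusterin) and Fabp7 had the smallest p, with log2 changes of 1.40, 0.77 and 0.65. Of the 13 changes 10 were positive, while Aldh1l1 (-0.32), Aldoc (-0.12) and S100b (-0.06) were negative and did not pass. Vim read 1001, 1258 and 638 on uninjured arrays 1 to 3, lowest on array 3 like most of the fibroblast and meningeal list. Gfap is a listed marker but was not among the 13. Fabp7 did not pass on leaving out contused array 2 or 3 or uninjured array 2 or 3 (adjusted p = 0.0519 to 0.0863), and neither Fabp7 (0.107) nor Vim (0.0564) passed with dim probe sets kept in. Of 11 vascular and mural markers limma called 0 (2 with an unadjusted p under 0.05; median -0.24), the brightest being Slc2a1 with a log2 change of -0.41 and Tagln with -0.30, each by its brightest probe set. The second Slc2a1 probe set, S68135_s_at, fell, with a log2 change of -0.91 (adjusted p = 0.0129), and that of Tagln had one of -0.51 (0.108). Microglia and macrophage markers rose in 12 of 13 cases, with a summed signal of 2014 to 2767 in uninjured cord and 8339 to 8903 after contusion. Of these, Itgam, Fcgr2b and Hmox1 were below the floor on all uninjured arrays. They entered the test only through the contused arrays, so their direction was set by the filter. Myelin markers fell in 5 of 9 cases and rose in 0, while of 6 Schwann cell markers limma called 0 (2 with an unadjusted p under 0.05; median 0.28). Their part in the proteoglycan values was not tested.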

How the data were processed

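The table deposited by the authors holds 1 intensity per probe set and array, linear as judged from the values; the probe summary, background subtraction and scaling behind it are not given in the sources used here. The arrays' 2% trimmed means lay between 210.6 and 229.6, within 9.03% of each other and under the set limit of 10%, so no scaling was added. Columns of other samples numbered 0. Of 8799 probe sets 59 were controls and left out. Of the other 8740, 7006 had 1 gene, 308 several and 1426 none in the array's annotation, and symbols were updated through gene identifiers to the GRCr8 assembly. The log2 fit used limma 3.58.1 in R 4.3.3 (lmFit, eBayes with an intensity trend, 4 residual degrees of freedom before moderation), contused against uninjured, two-sided, with no covariates. For genes of a list the brightest tested probe set stood for the gene. The 3 arrays a group limit precision. Recovery was tried on simulated arrays with 6705 probe sets of this comparison, 200 of them changed. Of 4-fold changes 97.5% were recovered, of 2-fold changes 82.5% and of 1.5-fold changes 0%. The 200 were drawn from probe sets above the median signal and were fewer than the 1165 called in these data. The shares therefore do not apply to dim members, nor to a comparison with as many changes as this one. Members and lists were chosen with earlier results of these data known. Named are all member probe sets and the 3 genes most like each called member. From the lists up to 3 risen and 3 fallen genes of smallest p are named, or, where 0 passed, the 2 brightest. This was not done for the microglia and macrophage, neuron, myelin and Schwann cell lists. Other genes named were chosen after their values were seen. Alternatives were other floors, no filter, 3 other scalings, no trend, a replicate block and leaving out each array. Python 3.11.15 served for plots, with matplotlib 3.10.9 and pandas 2.3.3.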

Additional observations from a re-analysis of the deposited data

How the results depend on the processing

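Against 4 proteoglycan probe sets past the threshold, a floor at the 50th percentile left 2 (10 tested) and omitting the filter on dim probe sets 1; leaving out 1 array gave 0 to 5. Against 1165 probe sets in all, 662 passed without the filter and 659 to 1260 with 1 array left out. A floor at the 10th percentile, quantile normalization, a common trimmed mean, median centring or no intensity trend gave 3 or 4. The log2 change of Ptprz1 U09357_at turned positive with the floor at the 50th percentile (0.13) and without contused array 1 (0.077), contused array 2 (0.20) or uninjured array 1 (0.073), and leaving out 1 array gave -0.52 to 0.20; the cause was not tested. No other tested member probe set changed sign in any setting run. The common trimmed mean gave 631 higher and 584 lower probe sets, against 522 and 643 as deposited. The labels do not say whether array numbers pair the samples. Deviations of same-numbered arrays correlated at 0.0415, 0.222 and -0.244, and contused array 1 correlated best with uninjured array 3 (0.267). Within a group these deviations sum to 0 over 3 arrays, so the correlations cannot decide on pairing. With the replicate block 3 member probe sets and 1200 in all passed. Counts in the fibroblast and meningeal list ran from 2 to 7 and in the TGF-beta list from 2 to 8 over the settings other than left-out arrays. Signals near the floor limit Vcan, Ncan and Ptprz1.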

Other observations

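The genes lowest on uninjured array 3 relative to the other uninjured arrays are given here by rank and were picked after their values were seen. Among 3955 genes, each by its brightest tested probe set, Col3a1 (a fibrillar collagen) came first, with signals of 583, 685 and 152 on uninjured arrays 1 to 3 and a log2 difference of -2.06. Igfbp6 followed at -1.92, the amino acid transporter gene Slc6a20a at -1.64, Loxl1, a collagen cross-linking enzyme, at -1.55, Serping1 at -1.49 and Mgp (matrix Gla protein) at -1.47. Dcn stood at rank 11 (-1.21) and Lum at rank 13 (-1.18). In the comparison with contused cord some of these genes passed the test and some did not: Col3a1 had a log2 change of 1.68 (limma adjusted p = 0.0294), and Igfbp6 one of 0.39 (adjusted p = 0.600).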
